A study of Mus musculus with 6 samples.

Results

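The contractile genes of the myofibroblast were followed in synovial fibroblasts (SFs), the connective tissue cells of the joint lining, with and without amisulpride, a drug that antagonises dopamine receptors and is prescribed against psychosis. The list holds 10 of the 49548 genes in the table, taken by gene name: the smooth muscle actins Acta2 and Actg2, the actin filament regulators Tagln, Cnn1, Cald1, Tpm1 and Tpm2, the myosin subunits Myl9 and Myh11, and the intermediate filament gene Des. SFs came from the ankle joints of 8-week-old hTNFtg mice, which carry a human TNF transgene and develop arthritis. All 6 libraries carry the transgene, and no wild-type library was analysed here. The untreated group has 3 libraries labelled as given no treatment, although the methods speak of vehicle, and the other 3 were kept in 500 μM amisulpride over 48 hours. The mice were of a CBA C57BL/6J background, and the cultures were depleted of CD45+ cells at the first passage. RNA was read by 3′ mRNA sequencing, which counts transcript ends.

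A myofibroblast is a fibroblast that has taken on part of the contractile machinery of smooth muscle. Actin filaments, stiffened by tropomyosin and guarded by calponin, caldesmon and transgelin, are pulled by myosin whose light chain is phosphorylated by myosin light chain kinase. Many of the genes are switched on through serum response factor (SRF) and its MRTF partners, which act at a short AT-rich sequence called the CArG box, and TGF-beta is the best known inducer of the state. In the joint, fibroblasts with smooth muscle actin are found in inflamed and fibrotic synovium.

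The CArG box was looked for in the RefSeq promoter windows (build GRCm38.p6), which run from 250 bases before to 50 bases after a start site and were given for 7 of the 10 genes. No window was given for Actg2, Tagln and Myh11. The motif was searched as CC, then 6 bases of A or T, then GG, which reads the same on both strands, and also with 1 mismatch. An exact match stood in 1 of the 7 genes, Myl9, against 1.63% of all 32851 windows and 1.29% of the windows of tested genes. A match with at most 1 mismatch stood in 4 of the 7, Acta2, Myl9, Tpm1 and Cald1, against 21.1% of all windows and 16.3% of those of tested genes. These shares are per window and the counts per gene, and Cald1 had 2 windows, only 1 of which held a match. Cnn1, Tpm2 and Des had none in their windows. The sites are shown because they lie at genes that were lower after amisulpride (Acta2, Myl9) and also at genes that did not pass the test (Tpm1, Cald1). Each is given 5′ to 3′ on the strand of its gene, with the matched bases in capitals.
Acta2, chr19:34255438-34255467, minus strand, 84 bases before the start: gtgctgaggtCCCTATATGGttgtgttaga
Acta2, chr19:34255388-34255417, minus strand, 34 bases before the start: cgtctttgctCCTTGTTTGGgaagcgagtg
Myl9, chr2:156775293-156775322, plus strand, 161 bases before the start, exact: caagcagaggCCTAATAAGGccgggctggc
Myl9, chr2:156775355-156775384, plus strand, 99 bases before the start: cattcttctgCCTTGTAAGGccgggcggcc
Tpm1, chr9:67049415-67049444, minus strand, 221 bases before the start: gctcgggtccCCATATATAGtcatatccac
Tpm1, chr9:67049274-67049303, minus strand, 80 bases before the start: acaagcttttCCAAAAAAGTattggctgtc
Cald1, chr6:34598291-34598320, plus strand, 203 bases before the start: acggtttcaaGCTTTTTAGGacttggtttt

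Values are normalised counts, meaning reads per gene after the authors' scaling of whole libraries, given as whole numbers. The estimated depth ran from 2.52 to 4.71 M reads, with that of untreated replicate 1 the least certain, and the floor, set at 3 reads, was worth 2.502 to 5.37 normalised counts depending on the library. Amisulpride replicate 3, the shallowest, stood apart from the rest, at 73.9 on the leading principal component (37.1% of the variance) against -38.2 to 10.4 in the other 5. The filter on low values, which asked for 10 normalised counts or more in 3 or more libraries, kept 12614 genes, of which 8 were contractile genes. Each of these 8 reached 10 in libraries of both groups, and 6 of them did so in all 6 libraries. Defining markers of synovial fibroblasts were present, with all 11 fibroblast markers tested and a summed level of 8659 to 10448 normalised counts in untreated and 6361 to 8687 in treated SFs. Pdpn was the largest part of these sums, with a mean of 4432 in untreated and 2895 in treated SFs. By sign of the log2 fold change, 6 of the 11 were higher and 5 lower.

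Of the 8 tested genes 6 fell past the study thresholds (a log2 fold change of 1 or more in size and an unadjusted p-value below 0.05), where 3.01% of all tested genes were lower by that rule. These were Acta2, Actg2, Tagln, Cnn1, Tpm2 and Myl9, and no contractile gene rose past the study thresholds. The other 2, Tpm1 and Cald1, had log2 fold changes of 0.49 and 0.37 that did not pass. In these bulk SFs fewer cells of a type and less RNA per cell cannot be told apart. In each of the 6 the treated values all lay below the untreated ones, as they did in 8.66% of all tested genes. With limma adjusted over all genes, 0 of the 8 had an adjusted p-value under 0.05 (0.285% of all tested genes did, and 0.19% in the lower direction), while 6 had an unadjusted p-value under 0.05 (5.77% of all tested genes, lower). Same-numbered libraries of the 2 groups deviated together, and with the replicate number as a block all 6 had an adjusted p-value under 0.05, as did 1.05% of all tested genes in the lower direction. Without amisulpride replicate 3 the number was 3 (Acta2, Tagln and Cnn1) against 0.565%, and without amisulpride replicate 2 it was 1 (Cnn1) against 0.0486%. Without amisulpride replicate 2 the study thresholds were passed by 5 of them, against 3.15%. The median log2 fold change of the 8 was -1.42, beside 0.0016 over all tested genes.

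**Figure D1:**
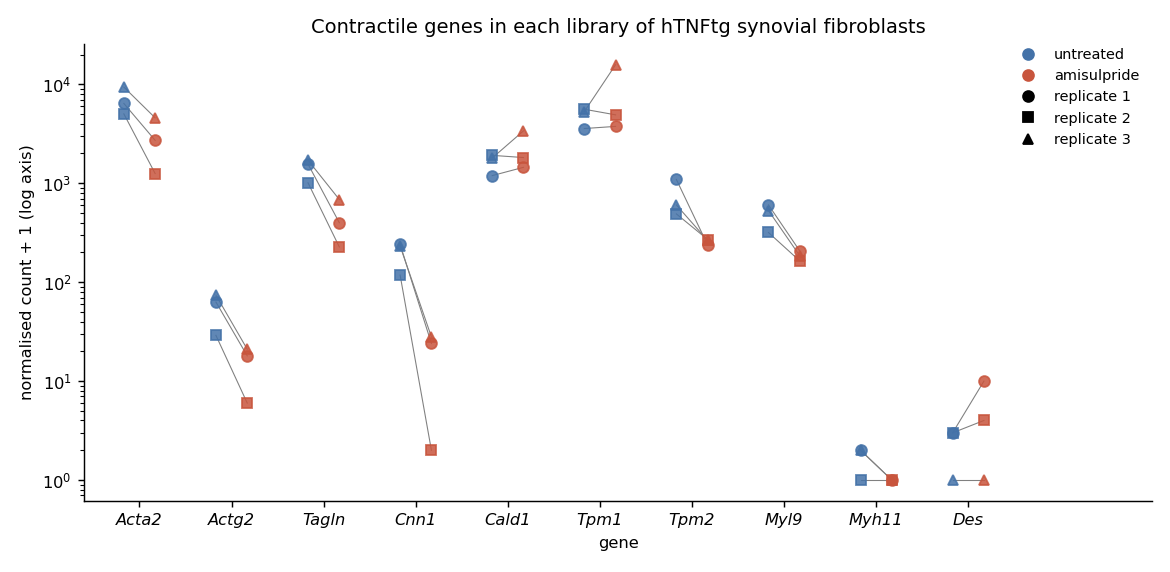
Normalised count plus 1, on a log axis, of the 10 contractile genes in each library, with untreated libraries in blue, amisulpride libraries in red and lines joining libraries of the same replicate number. In Acta2, Actg2, Tagln, Cnn1, Tpm2 and Myl9 every red point lies below every blue one, whereas Cald1 and Tpm1 overlap and Myh11 and Des stay near 0.

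Acta2 (ENSMUSG00000035783, mm10 chromosome 19, 34241090 to 34255336, minus strand) encodes alpha smooth muscle actin, the usual marker of a myofibroblast. It stood at 6413, 5030 and 9384 normalised counts in untreated replicates 1 to 3 and at 2714, 1253 and 4586 in the treated ones. The groups did not overlap, although the highest treated library, replicate 3, came close to the lowest untreated one, replicate 2. The mean fell from 6942 ± 2225 to 2851 ± 1671 (SD, n = 3), which is -1.43 ± 0.43 (SE) on the log2 scale. Its adjusted p by limma was 0.225, or 0.0142 with the replicate block. Without amisulpride replicate 2 the log2 fold change was -0.93 and no longer passed the study thresholds, with an adjusted p of 0.51.

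Actg2 (ENSMUSG00000059430, chromosome 6, 83512905 to 83536265, minus strand), the gamma actin of visceral smooth muscle, was a low transcript with 62, 28 and 73 normalised counts in untreated SFs against 17, 5 and 20 in treated ones. All 6 values lay above the floor of their library, and the treated ones were each below the lowest untreated value. Its log2 fold change was -1.97 ± 0.54, with an adjusted p of 0.184, or 0.0127 with the block. Of the 30-base words in its last 300 bases, 0.522% also occur in the cardiac actin Actc1, which was at 0 in all 6 libraries. A further gene, Gm47940, holds 1.17% of these words and has no values here under that name.

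Tagln (ENSMUSG00000032085, chromosome 9, 45929619 to 45936058, minus strand) encodes transgelin, an actin-binding protein of smooth muscle also called SM22. Its values were 1562, 1010 and 1708 in untreated SFs and 398, 226 and 684 in treated SFs. The treated values were spread over a wider range than those of Myl9 or Tpm2, with replicate 2 lowest and replicate 3 highest. The log2 fold change was -1.81 ± 0.38, with an adjusted p of 0.0761, or 0.00135 with the block. Pcsk7 overlaps Tagln on the opposite strand, and whether the authors' counting used strand was not given in the sources used here. Pcsk7 itself had 41 to 111 normalised counts and a log2 fold change of -0.06.

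Cnn1 (ENSMUSG00000001349, chromosome 9, 22099216 to 22109630, plus strand), or basic calponin, restrains the myosin ATPase on smooth muscle actin filaments. It had 240, 117 and 231 normalised counts in untreated SFs against 23, 1 and 27 in treated SFs, the lowest of which was under the floor of 4.01 in its library. The log2 fold change, the lowest of the 8, was -4.09 ± 0.81, with an adjusted p of 0.0652, or 0.00021 with the block. Without amisulpride replicate 2 it was -2.86, with an adjusted p of 0.0428. The treated mean was 8.67% of the untreated mean.

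Tpm2 (ENSMUSG00000028464, chromosome 4, 43514711 to 43523765, minus strand) encodes beta tropomyosin, which lies along the actin filament. It stood at 1092, 489 and 602 in untreated SFs and at 236, 269 and 263 in treated SFs. The untreated values varied by more than the treated ones, with replicate 1 the highest. The log2 fold change was -1.42 ± 0.30, with an adjusted p of 0.0769, or 0.0126 with the block.

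Myl9 (ENSMUSG00000067818, chromosome 2, 156775420 to 156781658, plus strand), the regulatory light chain of smooth muscle and stress fibre myosin, had 604, 317 and 529 normalised counts in untreated SFs against 206, 163 and 184 in treated SFs. Its treated values lay close together, and all were under the lowest untreated value. The log2 fold change was -1.34 ± 0.28, with an adjusted p of 0.0764, or 0.00987 with the block.

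Across these 6 genes untreated replicate 2 held the lowest untreated value in 6 and amisulpride replicate 2 the lowest treated value in 5. The exception was Tpm2, whose lowest treated value was in replicate 1. Since the groups did not overlap in any of the 6 genes, the treated library was necessarily lower than the untreated one within each replicate number.

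Tpm1 and Cald1 did not pass the test. Tpm1 (ENSMUSG00000032366, chromosome 9, 67022590 to 67049406, minus strand), alpha tropomyosin, is used by muscle and by non-muscle cells through different promoters and exons. It had 3575, 5601 and 5296 normalised counts in untreated SFs against 3757, 4916 and 15783 in treated SFs, so that amisulpride replicate 3 alone lay above the untreated range. The log2 fold change was 0.49 ± 0.47 (limma adjusted p 0.749), and -0.14 ± 0.29 without that library. Cald1 (ENSMUSG00000029761, chromosome 6, 34598500 to 34775473, plus strand), caldesmon, likewise exists in a smooth muscle and a non-muscle form. It stood at 1194, 1914 and 1798 in untreated SFs and at 1449, 1819 and 3387 in treated SFs, again with replicate 3 the highest. Its log2 fold change was 0.37 ± 0.34 (adjusted p 0.736), and 0.02 ± 0.27 without amisulpride replicate 3. The values are sums over all transcripts of a gene, so muscle and non-muscle forms were not separated.

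Myh11 and Des did not pass the filter on low values. Myh11 (ENSMUSG00000018830, chromosome 16, 14194527 to 14291408, minus strand), the myosin heavy chain that defines mature smooth muscle, had 1, 0 and 1 normalised counts in untreated SFs and 0 in each treated library, all under the floor. Des (ENSMUSG00000026208, chromosome 1, 75360329 to 75368579, plus strand), which encodes the muscle intermediate filament protein desmin, had 2, 2 and 0 in untreated SFs and 9, 3 and 0 in treated SFs. Of these only amisulpride replicate 1, with a floor of 2.69, was above the floor of its library. A change in either gene was not detectable at this depth.

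The non-muscle counterparts of the contractile proteins were examined next, since most contractile genes have a close relative that every cell uses. Of 13 such genes, all tested, 0 were lower with an unadjusted p-value under 0.05 in limma and 1, Myl12b, was higher, beside 5.77% and 5.11% of all tested genes. Their median log2 fold change was -0.06, with a range of -0.43 to 0.89. The cytoplasmic actin Actb stood at 17143, 12022 and 15622 in untreated SFs and 17395, 9368 and 12351 in treated SFs, with a log2 fold change of -0.23 ± 0.33. The other cytoplasmic actin, Actg1, had 3581, 3758 and 4077 and then 4787, 4280 and 6913, groups that did not overlap (7.8% of all tested genes were higher without overlap), with a log2 fold change of 0.46 ± 0.27 that did not pass (limma unadjusted p 0.122). Its promoter window holds an exact CArG match, 90 bases before the start.
Actg1, chr11:120348566-120348595, minus strand: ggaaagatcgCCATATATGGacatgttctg

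Log2 fold changes were -0.15 ± 0.29 for Tagln2, -0.22 ± 0.24 for Tpm3, 0.15 ± 0.38 for Tpm4, -0.19 ± 0.28 for Myh9 (non-muscle myosin heavy chain) and 0.21 ± 0.34 for Vim (vimentin, the fibroblast intermediate filament). Myl12b, a regulatory light chain of non-muscle myosin, had 244, 196 and 158 normalised counts in untreated SFs against 308, 304 and 417 in treated SFs. Its log2 fold change of 0.79 ± 0.26 (limma unadjusted p 0.012, adjusted p 0.272) was below the fold required by the study thresholds. Without untreated replicate 3 it was 0.63, with an unadjusted p of 0.064.

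**Figure D2:**
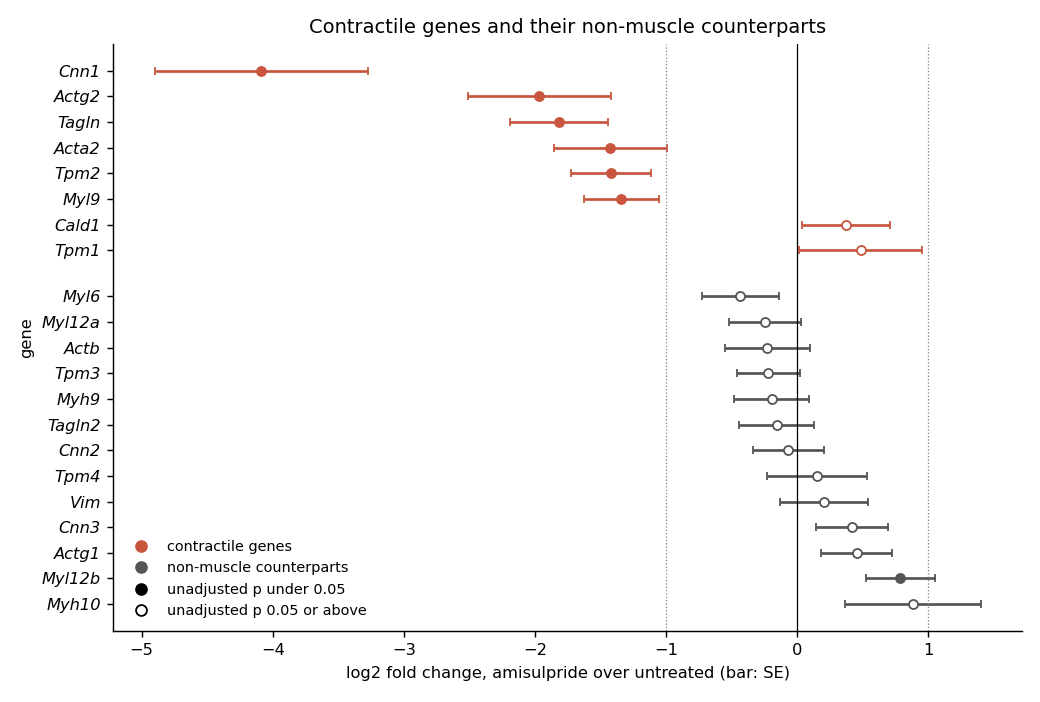
Log2 fold change, amisulpride over untreated, of the 8 tested contractile genes (red) and 13 non-muscle counterparts (grey), with bars for the SE and filled points for an unadjusted p-value under 0.05. Cnn1, Actg2, Tagln, Acta2, Tpm2 and Myl9 lie between -4.09 and -1.34, and all the non-muscle counterparts lie between -0.43 and 0.89.

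A share within a gene family does not depend on how libraries were scaled. Acta2, Tagln, Cnn1, Tpm2, Tpm1 and Myl9, chosen after the values were seen, were therefore also expressed as percentages of the transcript-end reads of their families. Acta2 made up 23.5%, 24.1% and 32.2% of the reads of 6 actin genes in untreated SFs and 10.9%, 8.40% and 19.2% in treated SFs. The mean share was 26.6% ± 4.82 against 12.8% ± 5.66 (SD, n = 3), and the groups did not overlap (two-sided exact permutation p = 0.1, the smallest that 3 against 3 libraries can give). Cnn1 made up 12.1%, 5.28% and 7.82% of calponin reads in untreated SFs and 0.912%, 0.0355% and 0.972% in treated SFs (exact permutation p = 0.1). Tpm2 made up 14.1%, 4.22% and 6.58% of tropomyosin reads and then 3.17%, 2.92% and 1.33% (exact permutation p = 0.1). In amisulpride replicate 3 the tropomyosin total was 19756, of which Tpm1 held 15783, against totals of 7435 and 9225 in amisulpride replicates 1 and 2. Tpm2 itself was at 263 there, against 236 and 269, so its lowest share reflects the larger total. Myl9 made up 23.9%, 10.1% and 14.2% of the regulatory light chain reads and then 8.06%, 6.77% and 6.96% (exact permutation p = 0.1). These 4 families thus held a smaller share of the contractile gene in every treated library than in any untreated one.

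For Tagln the shares, 33.3%, 24.8% and 37.7% against 9.40%, 8% and 25.8%, overlapped in 1 treated library, replicate 3 (exact permutation p = 0.2). Tpm1 made up 46.2%, 48.3% and 57.9% of tropomyosin reads in untreated SFs and 50.5%, 53.3% and 79.9% in treated SFs (exact permutation p = 0.5). With libraries paired by replicate number, the share was lower after amisulpride in 3 of 3 pairs for Acta2, Tagln, Cnn1, Tpm2 and Myl9 and higher in 3 of 3 for Tpm1. For Acta2, Cnn1, Tpm2 and Myl9, whose shares did not overlap, any pairing would give that count. The paired exact permutation p was 0.25 for each of the 6 genes, the smallest that 3 pairs can give. The 6 unpaired exact p-values, adjusted together by the Benjamini-Hochberg method, were 0.15 for Acta2, Cnn1, Tpm2 and Myl9, 0.24 for Tagln and 0.5 for Tpm1.

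**Figure D3:**
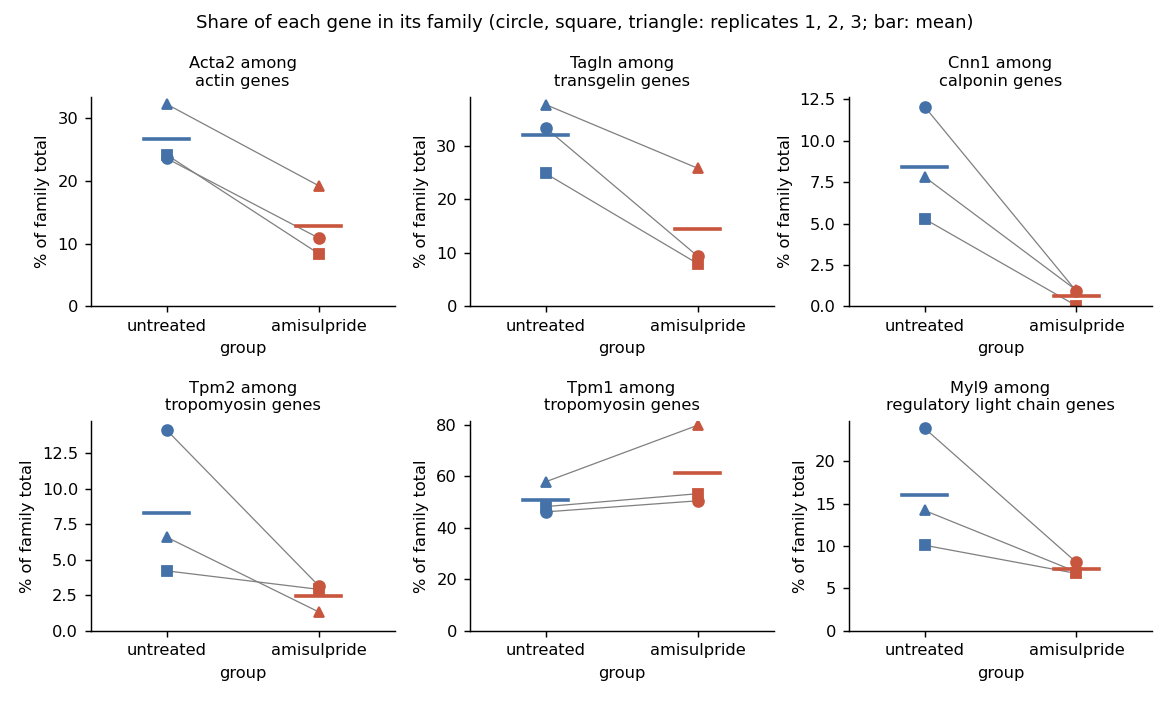
Percentage of the reads of a gene family taken by Acta2, Tagln, Cnn1, Tpm2, Tpm1 and Myl9 in each library, with lines joining libraries of the same replicate number and bars for the mean. The share of Acta2 lies between 23.5% and 32.2% in untreated and between 8.40% and 19.2% in treated SFs, and that of Tpm1 overlaps between the groups.

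Of 12 enzymes and regulators that act on the myosin light chain 11 were tested, of which 2 were lower and 1 higher with an unadjusted p-value under 0.05, against 5.77% and 5.11% of all tested genes, and the median log2 fold change was -0.09. Mylk, myosin light chain kinase, had 1149, 971 and 1455 normalised counts in untreated SFs against 679, 439 and 458 in treated SFs, without overlap. It fell by 1.19 ± 0.27 on the log2 scale, with a limma adjusted p of 0.0965, or 0.0234 with the block. Ppp1r14b, which encodes an inhibitor of the phosphatase that opposes the kinase, had 740, 1004 and 1131 and then 626, 541 and 329. Its log2 fold change of -0.97 ± 0.29 (limma unadjusted p 0.00695) was just short of the study thresholds. It passed them without untreated replicate 1 (-1.15), amisulpride replicate 1 (-1.16) or amisulpride replicate 2 (-1.05). It also passed with libraries scaled to the same total (-1.04) or quantile normalisation (-1.01). Rnd3, a small GTPase that loosens stress fibres, had 206, 190 and 179 and then 305, 302 and 270, with a log2 fold change of 0.61 ± 0.23 (unadjusted p 0.0227). That p by limma rose to 0.0591 or 0.0756 when untreated replicate 2 or 3 was left out, to 0.0594 or 0.058 when amisulpride replicate 1 or 2 was, and to 0.0517 with libraries scaled to the same total.

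Among 12 further genes of differentiated smooth muscle, 7 were tested and 2 fell past the study thresholds, beside 3.01% of all tested genes. Lmod1, leiomodin, which starts actin filaments in smooth muscle, had 65, 51 and 79 normalised counts in untreated SFs against 11, 12 and 18 in treated SFs. It fell by 2.18 ± 0.37 on the log2 scale, with a limma adjusted p of 0.0368, and 0.00499 with the block. Leaving out a library moved that adjusted p to between 0.00957 and 0.249. Nexn, an actin-binding protein, had 78, 39 and 93 and then 28, 51 and 16, groups that overlapped, with a log2 fold change of -1.18 ± 0.46 (unadjusted p 0.0261). It no longer passed without untreated replicate 1 (-1.06), untreated replicate 3 (-0.93), amisulpride replicate 1 (-1.17) or amisulpride replicate 3 (-0.78). With library weights Nexn did not pass either (-0.90, limma unadjusted p 0.0522). Pln was at 0 in all 6 libraries and Kcnmb1 at 0 to 2. Promoter windows were also searched for Mylk and for the vessel wall marker Mcam (below), both lower after amisulpride, and for Myl12b and Tagln2. None of these held a match with at most 1 mismatch. The promoter window of Lmod1 holds 2 matches to the CArG box with 1 mismatch each, shown because Lmod1 was lower after amisulpride.
Lmod1, chr1:135324614-135324643, plus strand, 189 bases before the start: gcccccttgtCTTTAAAAGGctaaactgct
Lmod1, chr1:135324639-135324668, plus strand, 164 bases before the start: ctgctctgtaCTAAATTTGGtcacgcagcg

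Stress fibre and focal adhesion genes, 18 in all, moved on the log2 scale by a median of -0.06, with 0 lower and 1 higher at an unadjusted p-value under 0.05 in limma (5.11% of all tested genes were higher by that rule). The latter was Fhl2, a LIM protein of focal adhesions and a co-regulator of SRF. It rose from 205, 231 and 331 normalised counts to 435, 563 and 961, a log2 fold change of 1.30 ± 0.32 (limma adjusted p 0.135, or 0.00987 with the block), or 0.98 without amisulpride replicate 3. By the study thresholds 2.69% of all tested genes were higher. Both of its promoter windows hold an exact CArG match, shown here because it changed in the direction opposite to the contractile genes.
Fhl2, chr1:43196838-43196867, minus strand: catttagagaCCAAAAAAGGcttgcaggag
Fhl2, chr1:43163973-43164002, minus strand: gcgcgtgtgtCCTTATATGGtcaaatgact

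Vcl, vinculin of focal adhesions, named after its values were seen, also holds an exact match, 227 bases before the start, and had a log2 fold change of -0.06 ± 0.27 (limma unadjusted p 0.814).

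The transcription factors of the CArG box and their early targets, 9 genes of which 8 were tested, had 1 lower and 1 higher member at an unadjusted p-value under 0.05, beside 5.77% and 5.11% of all tested genes. Mkl1, which encodes MRTF-A, had 309, 158 and 198 normalised counts in untreated SFs against 162, 139 and 77 in treated SFs, groups that overlapped narrowly, with a log2 fold change of -0.82 ± 0.35 (unadjusted p 0.0364), a call that 1 library could turn either way. It passed the study thresholds without untreated replicate 2 (-1.04) or amisulpride replicate 1 (-1.03), whereas its unadjusted p by limma was 0.159 with untreated replicate 1 left out (-0.55), 0.0644 with untreated replicate 3 left out, and 0.122 with amisulpride replicate 3 left out (-0.50). With library weights it was -0.53 (unadjusted p 0.092), and with no mean-variance trend its unadjusted p was 0.0625. Ctgf, a secreted matricellular protein and target of SRF and YAP, rose from 11976, 9403 and 10616 to 15297, 19468 and 40012, a log2 fold change of 1.11 ± 0.38 (unadjusted p 0.0132). Without amisulpride replicate 3 its log2 fold change was 0.70, and with library weights it was 0.90. Srf itself, named here after its values were seen, had 881, 581 and 835 and then 897, 897 and 1387, with a log2 fold change of 0.46 ± 0.28 (unadjusted p 0.121). Myocd, the cofactor of mature smooth muscle, was at 0 in 5 libraries and at 1 in untreated replicate 3.

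Matrix genes that respond to TGF-beta moved on the log2 scale by a median of 0.02 over 13 genes, 7 being higher and 6 lower, and by -0.21 without amisulpride replicate 3. Only Tgfbi, a secreted adhesion protein, had an unadjusted p-value under 0.05, 1 of 13 genes beside 5.77% of all tested genes that were lower by that rule. It fell from 285, 173 and 156 to 99, 142 and 55, a log2 fold change of -1.10 ± 0.37 (limma unadjusted p 0.0125). Tgfbi did not pass the study thresholds without untreated replicate 1 (-0.83) or amisulpride replicate 3 (-0.73), or with library weights (-0.745).

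**Figure D4:**
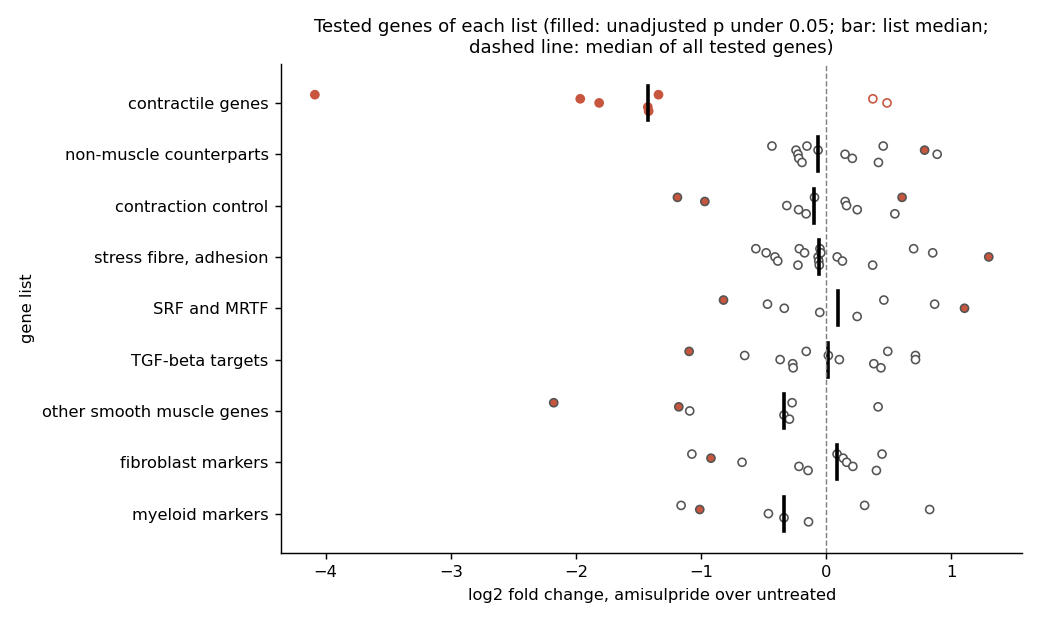
Log2 fold change, amisulpride over untreated, of every tested gene in 9 lists, with filled points for an unadjusted p-value under 0.05, bars for the median of each list and a dashed line for the median of all tested genes. The contractile genes have a median of -1.42 over 8 genes, and the medians of the other lists lie between -0.34 and 0.10.

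Other cells that express contractile genes were checked with marker lists. Of 8 pericyte and vessel wall markers 7 were above 0 in some library and 3 were tested, with a summed level of 255 to 399 normalised counts in untreated and 189 to 266 in treated SFs. Rgs5, which marks pericytes, was at 8 to 12 in untreated and 2 to 8 in treated SFs, Higd1b was at 0 in all 6 libraries and Kcnj8 and Abcc9 did not exceed 2. Mcam, an adhesion molecule of vessel wall cells, had 112, 122 and 184 and then 53, 47 and 57, and fell by 1.37 ± 0.29 on the log2 scale (limma adjusted p 0.0764, or 0.0191 with the block). The other 2 tested markers overlapped between the groups, Cspg4 with a log2 fold change of 0.21 ± 0.40 and Notch3 with -0.08 ± 0.44. The part of vessel wall cells in the contractile genes was not tested beyond these values.

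Of 20 skeletal muscle markers 11 were above 0 in some library and 2 were tested, Acta1 and Tnni2. The summed level of the 20 was 27 to 79 in untreated and 37 to 67 in treated SFs. Acta1 had 44, 19 and 14 and then 23, 8 and 11, with a log2 fold change of -0.79 ± 0.55. Tnni2 had 13, 2 and 0 and then 13, 35 and 4, with 1.97 ± 1.03 (limma unadjusted p 0.0811). Mylpf, untested, had 6, 2 and 0 and then 7, 16 and 11. The fibre myosins Myh1, Myh2 and Myh4 and the myoblast factors Pax7, Myod1 and Myf5 were at 0 in all 6 libraries. Endothelial markers, of which 0 of 7 were tested, summed to 2 to 9 and 0 to 12, with Cdh5 and Tie1 at 0. Myeloid markers were present despite the depletion of CD45+ cells, with 7 of 7 tested and sums of 2246 to 3762 in untreated and 2054 to 3912 in treated SFs. Most of each sum was Lyz2, at 1733 to 3046 in untreated and 1394 to 3287 in treated SFs. Ptprc, which encodes CD45, was at 12 to 38 in untreated and 5 to 23 in treated SFs. Of the 7 myeloid markers 2 were higher, Adgre1 (log2 fold change 0.83 ± 0.43) and Cd68 (0.31 ± 0.33), and 5 lower, with a median of -0.34. Only Csf1r had an unadjusted p-value under 0.05 (log2 fold change -1.01 ± 0.46, limma unadjusted p 0.0486), against 5.77% of all tested genes, lower. That call was lost without untreated replicate 1 (-0.87), untreated replicate 2 (-1.01), untreated replicate 3 (-1.15), amisulpride replicate 1 (-0.93) or amisulpride replicate 2 (-0.53), whereas without amisulpride replicate 3 the value was -1.57, with an adjusted p of 0.0567. Of the 11 fibroblast markers 6 were higher and 5 lower, with a median log2 fold change of 0.09. Only Prg4, lubricin of the lining layer, had an unadjusted p-value under 0.05, against 5.77% of all tested genes, lower. Prg4 had 915, 859 and 733 and then 426, 304 and 653, with a log2 fold change of -0.92 ± 0.29 (limma unadjusted p 0.00924). Prg4 passed the study thresholds without amisulpride replicate 3 (-1.21) or untreated replicate 3 (-1.01), and its unadjusted p by limma was 0.0507 without amisulpride replicate 2 (-0.66).

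The genes whose values followed Acta2 most closely were found by the root mean square difference of log2 values, centred per gene, over the 6 libraries, among 7238 protein-coding genes outside the list with a mean of at least 50. Among the 5 closest were Pdgfc (0.236 on the log2 scale), a growth factor of the PDGF family, Idi1 (0.316), an enzyme of the mevalonate pathway, Adgrl1 (0.344), an adhesion receptor, and Mical2 (0.348), an oxidase of actin. Among the contractile genes Tagln was the closest to Acta2, at 0.250 with 2 of the 7238 genes closer, followed by Actg2 at 0.389 with 7 closer, Myl9 at 0.541 with 66 closer and Tpm2 at 0.694 with 358 closer. Cald1, Tpm1 and Cnn1 were farther, at 1.05, 1.12 and 1.54.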

How the data were processed

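SFs from hTNFtg mice were profiled by QuantSeq 3′ mRNA sequencing in 3 untreated and 3 amisulpride libraries. The authors aligned reads to mm10 with TopHat2, aligned the remainder with Bowtie2, counted reads per gene with GenomicRanges, normalised the counts and tested them with DESeq, all through metaseqr (versions not given in the sources used here). The deposited values are a score, the reads of a gene after the authors' division by a library-wide factor, deposited as integers, so no count model was fitted. Another 12 per-library columns, on other scales, and the columns of the authors' own comparison (fold changes and p-values) were not used. The depth of each library was estimated from the spacing of its low values, which limits the precision of low genes, and floors cover counting error only.

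Genes that reached 10 in 3 or more of the 6 libraries were kept (12614 of 49548), log2(value + 1) was fitted by group with limma 3.58.1 in R 4.3.3 with a mean-variance trend, and p-values were adjusted over all kept genes by the Benjamini-Hochberg method. Fold changes are on the log2(value + 1) scale, which understates those of low genes, and tests are two-sided. The fit was checked on simulated data with the same dispersion in all genes, no pairing and no outlying library. That check therefore does not cover the pairing or the outlying library of the real data. Shares within families, chosen after values were seen, were compared by exact permutation, without and, as an alternative chosen after seeing the data, with pairing. Summaries used Python 3.11.15, pandas 2.3.3, numpy 2.4.6 and scipy 1.17.1, and figures matplotlib 3.10.9.

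The labels give both groups replicate numbers 1 to 3. Deviations from the group means correlated at 0.229, 0.240 and 0.201 between same-numbered libraries and at -0.149 to -0.0777 between the others. The negative values are not separate evidence of pairing, since deviations from a group mean cancel out within the group. From these same data the numbers were taken to pair the libraries. A fit with the replicate number as a block was set beside the fit without it. The methods give the libraries as biological replicates of cultured SFs, without saying which animals each came from, and p-values measure the spread between these libraries.

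The contractile genes and the other lists were chosen with earlier results of these data known. Outside them, named genes were those with an unadjusted p-value under 0.05 (at most 4 per list, by lowest p), the closest non-muscle counterparts, defining markers, and the 5 genes most like Acta2, of which 1 is not reported here. Promoter windows came from RefSeq. Opposite-strand genes overlap Tagln, Cald1 and Des. Alternatives were another pseudocount, other filters and scalings, library weights, no trend, the block, and leaving out each library.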

Additional observations from a re-analysis of the deposited data

How the results depend on the processing

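All 6 lower contractile genes kept their direction in every alternative in which they were tested, and their number past the study thresholds was 6 except without amisulpride replicate 2 (5, Acta2 lost) and with at least 10 required in all 6 libraries (4, since Cnn1 and Actg2 were then untested). The median of the tested contractile genes lay between -1.65 and -1.31. The number with an adjusted p-value under 0.05 by limma was 0, and became 1 with a pseudocount of 5 or no filter, 2 with libraries scaled to the same total or quantile normalisation, 5 with library weights and 6 with the replicate block. The block also took Mylk, Fhl2 and Mcam under that threshold. It was fitted to all tested genes, but its values are not given for Srf, Vcl, Pcsk7, Cspg4, Notch3 or the genes most like Acta2. Leaving out 1 library gave 0 to 3 contractile genes (1 without amisulpride replicate 2, 3 without amisulpride replicate 3). Over all genes that number was 36, and became 57 with a pseudocount of 5, 57 with no filter, 66 with quantile normalisation, 195 with library weights and 263 with the block. Leaving out 1 library gave 0 to 120: 1, 0 and 0 without untreated replicates 1, 2 and 3 (962, 1083 and 911 genes then had an unadjusted p-value under 0.05), and 17, 6 and 120 without amisulpride replicates 1, 2 and 3. Genes past the study thresholds numbered 719, and became 1313 with no filter and 435 with the stricter one, which test more and fewer genes. The direction turned for Tpm1 (-0.14) and Tagln2 (0.074) without amisulpride replicate 3, for Tpm4 (-0.19) without untreated replicate 1 and for Myh9 (0.076) without untreated replicate 3, and leaving out 1 library gave -0.14 to 0.90 for Tpm1, -0.41 to 0.074 for Tagln2, -0.19 to 0.61 for Tpm4 and -0.38 to 0.076 for Myh9. The causes were not tested. The median of all genes was -0.07 with libraries scaled to the same total.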
